A study of Mus musculus with 28 samples.

Results

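The unfolded protein response and the integrated stress response were followed through 10 genes, taken by symbol from the transcript tables and the authors' comparison tables: Hspa5, Hsp90b1, Dnajb9, Herpud1, Xbp1, Atf4, Ddit3, Trib3, Chac1 and Asns. They are 10 of 53302 gene symbols in each table, and all 10 were found and passed the filter on low counts in both cell types. The samples were messenger RNA of endothelial cells, drawn from digested kidneys with CD31 microbeads, and of proximal tubular cells, microdissected after enzymatic digestion, from male FVB mice. For each cell type the groups were ischemic acute kidney injury with a miR-486-5p mimic (2 libraries), injury with exosomes (3), injury with scrambled miRNA (3), injury without treatment (3) and sham surgery (3), 28 samples in all. Strain and sex are shared by all groups, and ischemic injury by all but sham. Age, dose, exosome source and the interval after injury are not given in the sources used here. The extraction notes speak of 3 mice per group, while the series design gives 2 for the mimic. Per-sample values were analysed for the 16 mimic, exosome and scrambled-miRNA libraries, and untreated and sham groups only through the authors' 12 comparison tables. Per the labels, untreated and sham samples are re-analyses from an earlier series, and 1 tubular sham sample merges a pair of earlier ones. P-values measure the spread between these libraries.

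Secretory and membrane proteins fold in the endoplasmic reticulum (ER). When unfolded proteins collect there, the chaperone BiP leaves the sensors IRE1, PERK and ATF6 in the ER membrane. IRE1 cuts an intron out of Xbp1 mRNA, ATF6 is cleaved into a transcription factor, and PERK phosphorylates the initiation factor eIF2, which lowers most translation while that of Atf4 mRNA rises. Other eIF2 kinases, such as GCN2 under amino acid shortage, reach ATF4 without ER stress, and this shared route is the integrated stress response. In kidney, proximal tubule cells are known to engage both routes after ischemia.

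The promoters are shown because 6 of the 10 members carry 1 of 2 stress elements there, and Ddit3, Atf4, Xbp1 and Dnajb9 held neither in this window. Sequences are from RefSeq (GRCm38.p6), which held the promoter of all 10 members, 250 bases before to 50 after the annotated start; positions count from that start as 0, in the direction of the gene, and capitals mark the motif. The ER stress element that ATF6 binds with NF-Y, searched as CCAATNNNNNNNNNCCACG on both strands, was found in 2 of 10 members and in 39 of 32851 promoters (0.119%).
Hspa5, chr2:34772014-34772054, plus strand, -65 to -47: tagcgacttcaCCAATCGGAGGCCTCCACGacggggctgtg
Hsp90b1, chr10:86705627-86705667, minus strand, -212 to -194: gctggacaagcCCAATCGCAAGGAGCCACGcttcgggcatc
Hsp90b1, chr10:86705522-86705562, minus strand, -107 to -89, motif reversed: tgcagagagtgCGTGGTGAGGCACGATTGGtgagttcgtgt
The C/EBP-ATF composite element bound by ATF4 and CHOP dimers, searched as TGATGNAA on both strands, was found in 4 of 10 members and in 1304 of 32851 promoters (3.97%). Members were picked as stress response genes, so these counts are no test of the motif. Of the 4 members with it, Trib3, Chac1 and Asns were called higher after injury in both cell types and Herpud1 in neither. Xbp1, Atf4 and Dnajb9, which held neither element, were called higher in tubular cells. Ddit3, which also held neither, was called in neither cell type, nor were Hspa5 and Hsp90b1 with the ER stress element. Of all genes, 20.2% were called in tubular and 4.41% in endothelial cells. Whether the elements have a part in these calls was not tested. The motifs do not overlap each other in any of the promoters shown.
Trib3, chr2:152344028-152344057, minus strand, 14 to 21, motif reversed: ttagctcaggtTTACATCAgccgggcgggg
Chac1, chr2:119351038-119351067, plus strand, -193 to -186, motif reversed: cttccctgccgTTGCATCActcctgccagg
Asns, chr6:7693214-7693243, minus strand, -23 to -16: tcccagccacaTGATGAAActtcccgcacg
Herpud1, chr8:94386306-94386335, plus strand, -112 to -105, motif reversed: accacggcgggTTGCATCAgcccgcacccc
A match describes these letters in this window and is not a measured binding site.

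The intron that IRE1 removes from Xbp1 mRNA lies inside exon 4 of Xbp1-201 at chr11:5524282-5524307 (plus strand, GRCm38, GENCODE M21 transcripts). It is printed because it decides what the Xbp1 values can show: 3 of the 4 Xbp1 transcripts quantified contain its 26 bases, in capitals here, and none of the 4 lacks only these bases, since the shortest annotated Xbp1 intron has 300. The spliced form was therefore not quantified apart from the unspliced one.
Xbp1, chr11:5524262-5524327: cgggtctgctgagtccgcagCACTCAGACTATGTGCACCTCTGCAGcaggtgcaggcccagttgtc

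The 16 libraries held 8.27 to 25.3 M reads, with the mimic libraries the deepest. Summed TPM (length-scaled transcript abundance) of 10 endothelial markers was 387 to 909 in endothelial and 22.3 to 64.4 in tubular libraries, and that of 10 proximal tubule markers 1538 to 14449 in endothelial and 13373 to 41703 in tubular libraries. The endothelial libraries also held 3710 to 14291 TPM of 7 thick ascending limb markers, so each endothelial value below is that of a mixture. In such bulk samples fewer cells of a type and less RNA per cell cannot be told apart. Summed TPM of 10 tubule injury markers was 76.6 to 149 with the mimic, 111 to 262 with exosomes and 373 to 2037 with scrambled miRNA in tubular libraries. In endothelial libraries it was 961 to 1366 with the mimic, 905 to 6222 with exosomes and 9963 to 12875 with scrambled miRNA. Markers of other tubule segments moved with treatment too. In tubular libraries summed TPM of the proximal tubule markers was 29156 to 41703 with the mimic, 28629 to 39451 with exosomes and 13373 to 20337 with scrambled miRNA. In endothelial libraries that of 9 distal and collecting duct markers was 660 to 715 with the mimic, 304 to 596 with exosomes and 189 to 247 with scrambled miRNA, and that of the thick ascending limb markers 12893 to 14291, 5985 to 9920 and 3710 to 8489 in the same order. The part of these marker shifts in any result below was not tested.

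Per length, the ER chaperones were the most abundant members. As mean TPM of the main transcript over 8 libraries, Hspa5, the gene of BiP, had 170.0 ± 41.5 (SD) in endothelial and 186 ± 28.9 in tubular libraries. Hsp90b1, which encodes the ER-resident HSP90 family chaperone GRP94, had 129 ± 35.9 in endothelial and 142 ± 28.1 in tubular libraries. Below them lay the transcription factor genes, with Xbp1 at 37.5 ± 8.62 TPM in endothelial and 35.1 ± 6.31 in tubular libraries, and Atf4 at 29.6 ± 4.27 and 25.8 ± 4.06 TPM. Herpud1-201 reached 23.2 ± 7.30 TPM in endothelial and 38.2 ± 17.0 in tubular libraries, but it held only 31.5 to 53.1% of Herpud1 reads, so the place of Herpud1 in this order is not set by it. Dnajb9 stood at 17.6 ± 3.03 TPM in endothelial and 14.5 ± 2.33 in tubular libraries, and Ddit3 at 7.15 ± 2.03 and 6.41 ± 3.06. Ddit3-201, its main transcript, held 58.4 to 71.9% of Ddit3 reads and the coding Ddit3-203 17.3 to 34.5%. The place of Ddit3 in this order is therefore not set by Ddit3-201 either. The 3 members at the low end, Asns (2.95 ± 2.66 TPM in endothelial, 2.54 ± 3.82 in tubular libraries), Chac1 (0.941 ± 0.365 and 0.327 ± 0.355) and Trib3 (0.813 ± 0.618 and 0.689 ± 1.53), had SDs above their means in tubular libraries, so their order there is not fixed.

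The response to injury was read from the authors' deposited tables of untreated injury over sham (n = 3 and 3 by the labels), whose samples on both sides come from the earlier series. In tubular cells 6 of 10 members rose and 0 fell, where 20.2% of 16874 genes were called. In endothelial cells 3 of 10 rose and 0 fell, where 4.41% of 19354 genes were called. The members' median log2 fold was 1.35 in tubular and 0.52 in endothelial cells, beside 0.01 and 0.00 over all genes tested. The authors' log2 folds appear shrunken towards 0, by a degree that differs between tables, so their sizes compare within a table only.

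Trib3, Chac1 and Asns had the largest folds in both cell types, and each is a classic ATF4 target. Trib3 encodes a pseudokinase that binds AKT and dampens ATF4 and CHOP, and rose by 4.62 (log2) in tubular cells in the authors' deposited table, with an SE of 1.051 and an adjusted p of 3.17e-05, and by 3.07 in the endothelial one (SE 0.77, adjusted p = 0.00033). Chac1, whose enzyme degrades glutathione, rose by 3.59 in the authors' deposited tubular table (SE 1.60, adjusted p = 0.00683) and by 2.46 in their endothelial one (SE 0.68, adjusted p = 0.00125). Asns, asparagine synthetase, rose by 2.12 in the authors' deposited tubular table (SE 0.86, adjusted p = 0.00689) and by 3.29 in their endothelial one (SE 0.60, adjusted p = 1.04e-06).

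The transcription factors and the ER folding genes differed in what they did. Xbp1 rose in tubular cells by 1.49 in the authors' deposited table (SE 0.38, adjusted p = 0.000306), as did Atf4 by 1.34 (SE 0.50, adjusted p = 0.00733). Dnajb9, the gene of the BiP co-chaperone ERdj4 and a target of spliced XBP1, rose there by 1.35 (SE 0.45, adjusted p = 0.00369). In endothelial cells the authors' deposited table gave 0.66 for Xbp1 (adjusted p = 0.0605), 0.63 for Atf4 (adjusted p = 0.161) and 0.30 for Dnajb9 (adjusted p = 0.429), none called. The chaperone genes were not called in either table: Hspa5 had log2 folds of -0.15 in tubular and 0.17 in endothelial cells, and Hsp90b1 of -0.35 and -0.06. Ddit3, the gene of CHOP, was listed at 0.04 in tubular and 0.37 in endothelial cells in the authors' deposited tables (adjusted p = 0.928 and 0.327), and Herpud1 at 0.78 and 0.42 (adjusted p = 0.0741 and 0.2997).

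**Figure D1:**
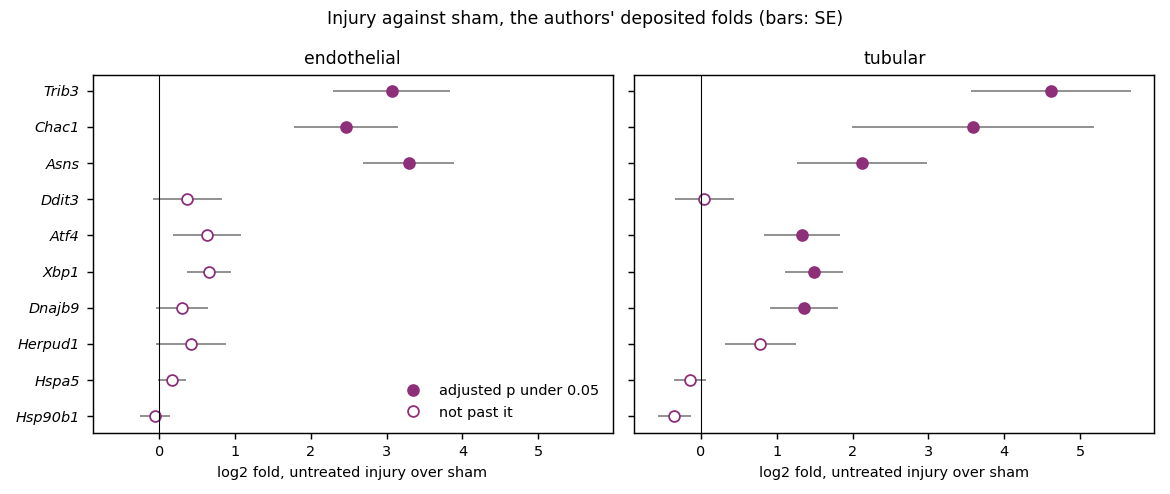
Authors' deposited log2 folds of untreated injury over sham for the 10 members, endothelial cells left and tubular cells right, with bars for the SE. Trib3, Chac1 and Asns lie at 2.12 or above in both panels with filled points (adjusted p under 0.05), while Hspa5 and Hsp90b1 lie between -0.35 and 0.17 with open points.

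Other pathway genes were set beside the members, from lists drawn up by role with earlier results of these data known. Of 32 other ATF4 and CHOP target genes tested, 13 rose and 1 fell in tubular cells in the authors' deposited table (median log2 fold 0.48), and 8 rose and 0 fell in endothelial cells (median 0.38). The largest called tubular folds were those of Ddit4, an mTORC1 inhibitor, at 3.63, of the amino acid carrier Slc38a2 at 3.02 and of the mitochondrial folate enzyme Mthfd2 at 2.83. In endothelial cells they were those of the cystine transporter Slc7a11 at 3.68, the transcription factor Cebpb at 2.68 and the serine synthesis enzyme Psat1 at 2.24 in the authors' deposited table. Of 18 cytosolic aminoacyl-tRNA synthetases, which charge tRNAs and include ATF4 targets, 3 rose in tubular cells (Gars 1.03, Aars 0.91 and Rars 0.81). In endothelial cells 1 rose (Gars 0.82). These synthetase counts are near the shares of all genes called, 20.2% in tubular and 4.41% in endothelial cells.

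Calls among the ER folding, degradation and sensor genes were at or near the 20.2% of all genes called in tubular cells, or below it, and are given as a description. Among 22 other chaperones and folding enzymes, 1 rose and 2 fell in tubular cells in the authors' deposited table (median -0.22): the disulfide oxidase Ero1l rose by 0.98, its relative Ero1lb fell by 0.72 and the lectin chaperone Canx fell by 0.50. Of 24 ER-associated degradation and secretory genes 2 rose and 3 fell (median 0.07), with the COPII coat subunit Sec24d at 0.96, its partner Sec23b at -0.86 and the ubiquitin-conjugating enzyme Ube2j1 at 0.72. Of 22 sensors and eIF2 regulators 2 rose and 2 fell (median 0.02), among them the ER-bound factors Creb3 at 0.91, Atf6b at -0.90 and Creb3l2 at -0.89. In endothelial cells 0 genes of these 3 lists were called at the authors' adjusted p under 0.05. Tubule injury markers moved with the members in the same tables: 9 of 10 rose in tubular cells (median 3.79; Havcr1, the gene of KIM-1, 5.19) and 10 of 10 in endothelial libraries (median 3.29; Havcr1 4.86), and 4 of 5 neutrophil markers tested rose in each.

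The treated groups were then compared with scrambled miRNA by edgeR's quasi-likelihood test on the estimated counts, adjusted over all genes. By that test 0 of 10 members were called in any of these 4 comparisons. In tubular cells 3 of 14900 genes were called with the mimic (0.0201%; 2431 at an unadjusted p under 0.05, 722 by DESeq2), and 772 with exosomes (5.18%; 3698 unadjusted, 1643 by DESeq2). In endothelial cells 0 of 16303 genes were called with the mimic (0%; 3173 unadjusted, 1254 by DESeq2) and 0 with exosomes (0%; 1857 unadjusted, 348 by DESeq2). At an unadjusted p under 0.05 stood 4 members with the mimic and 4 with exosomes in tubular cells, and 4 and 2 in endothelial cells. By DESeq2 2 members were called in each tubular comparison (Trib3 and Asns with the mimic, Trib3 and Herpud1 with exosomes), 2 with the mimic in endothelial cells (Herpud1 and Asns) and 1 with exosomes there (Herpud1). DESeq2 was given every gene with any read, a larger set, and its share of genes called was not counted.

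Without a test, groups can also be set against each other by whether their libraries overlap. With the mimic in tubular cells, 2 members lay wholly above scrambled miRNA and 4 wholly below, where 31.4% of all genes did not overlap. With exosomes there, 1 lay above and 2 below (30.7% of all genes). In endothelial cells 3 lay above and 2 below with the mimic (45.3% of all genes), and 2 above and 0 below with exosomes (15.2% of all genes). The only member wholly above scrambled miRNA in all 4 comparisons was Herpud1, and the comparisons within a cell type share their scrambled-miRNA libraries. The share of all genes above it in all 4 was not counted. The shares for single comparisons are the background for each member said below to lie apart from scrambled miRNA.

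**Figure D2:**
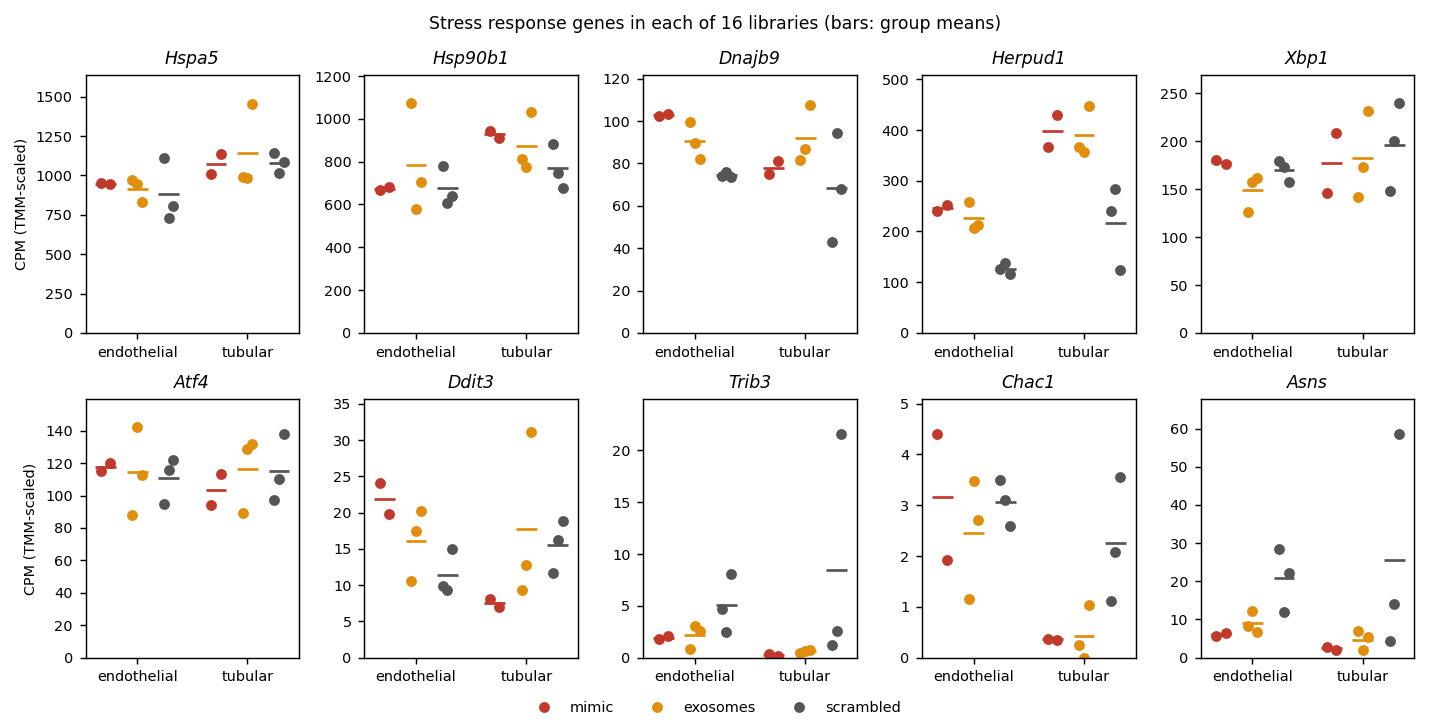
CPM (read counts scaled to library size by TMM) of each member in each of 16 libraries, 1 point a library and bars for group means, with mimic, exosomes and scrambled miRNA from left to right within each cell type. Herpud1 lies at 207 to 258 CPM in the 5 treated endothelial libraries, against 116 to 138 CPM with scrambled miRNA; Trib3 and Asns reach 21.6 and 58.7 CPM in 1 tubular scrambled-miRNA library.

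The ER chaperones overlapped between all groups or nearly so. Levels across libraries are given in CPM scaled by TMM over the 16 libraries. Hspa5 had 1012 and 1139 CPM with the mimic, 992, 983 and 1455 with exosomes, and 1141, 1016 and 1087 with scrambled miRNA in tubular cells. In endothelial cells it had 950.2 and 943 CPM with the mimic, 968, 948 and 829 with exosomes, and 1108, 728 and 808 with scrambled miRNA. Its log2 fold over scrambled miRNA lay between -0.01 and 0.10 in the 4 comparisons. Nominal 95% intervals, set from the SE by a normal approximation, ran from -0.44 at the lowest to 0.55 at the highest bound. With so few libraries they are narrower than the quasi-likelihood test implies.

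Hsp90b1 had 944 and 910.5 CPM with the mimic, 812, 774 and 1032 with exosomes, and 883, 747 and 679 with scrambled miRNA in tubular cells. Both mimic libraries there lay above the scrambled-miRNA ones, with a log2 fold of 0.27 (SE 0.20, edgeR adjusted p = 0.551). The endothelial levels were 668 and 681 CPM with the mimic, 1073, 578 and 703 with exosomes, and 781, 609 and 639 with scrambled miRNA, and all groups overlapped. The log2 fold there was 0.00 with the mimic (SE 0.27) and 0.23 with exosomes (SE 0.25).

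Herpud1, an ER membrane protein that helps degrade misfolded proteins, was higher in every treated library than in any scrambled-miRNA library of that cell type. So were the summed proximal tubule markers in tubular libraries and the summed distal and collecting duct markers in endothelial libraries. The part of these markers was not tested, and the share of all genes with such a pattern was not counted. Tubular Herpud1 levels were 366 and 429.6 CPM with the mimic, 367, 356 and 447 with exosomes, and 241, 284 and 125 with scrambled miRNA. Endothelial levels were 240.0 and 252 CPM with the mimic, 258, 207 and 213 with exosomes, and 125, 138 and 116 with scrambled miRNA. The 4 log2 folds were alike in size: in endothelial cells 0.97 with the mimic (SE 0.17, edgeR adjusted p = 0.0543) and 0.86 with exosomes (SE 0.16, adjusted p = 0.185), in tubular cells 0.87 with the mimic (SE 0.30, adjusted p = 0.211) and 0.85 with exosomes (SE 0.28, adjusted p = 0.102). It passed in 7 of 14 alternative fits with the mimic in endothelial cells (adjusted p from 0.000137 to 0.379), DESeq2 among them, in 2 of 14 with exosomes there (0.00049 to 0.5004), and in 1 and 2 of 14 in tubular cells (0.00318 to 0.786 and 0.00198 to 0.261). Without tubular scrambled-miRNA library 3, numbered in accession order, the tubular folds were 0.62 with the mimic and 0.55 with exosomes.

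Dnajb9 followed Herpud1 in endothelial cells with a smaller difference. There it had 102 and 103 CPM with the mimic, 99.5, 89.8 and 82.2 with exosomes, and 74.2, 75.9 and 73.4 with scrambled miRNA, so that no treated library overlapped the scrambled-miRNA ones. Of all genes, 45.3% did not overlap there with the mimic and 15.2% with exosomes, and the share in both was not counted. The log2 folds of Dnajb9 were 0.47 with the mimic (SE 0.15, edgeR adjusted p = 0.148) and 0.30 with exosomes (SE 0.14, adjusted p = 0.460). In tubular cells it had 74.9 and 81.2 CPM with the mimic, 81.5, 86.9 and 108 with exosomes, and 43.0, 94.5 and 68.0 with scrambled miRNA, and these groups overlapped.

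Xbp1 and Atf4 mRNA overlapped between treated and scrambled-miRNA libraries in both cell types. In tubular cells Xbp1 had 146 and 208 CPM with the mimic, 142, 174 and 232 with exosomes, and 148, 199.9 and 239.6 with scrambled miRNA. Endothelial Xbp1 levels were 180.0 and 176 CPM with the mimic, 126, 158 and 162 with exosomes, and 179.7, 173 and 158 with scrambled miRNA. The log2 folds of Xbp1 lay between -0.18 and 0.07 in the 4 comparisons. Atf4 stood in tubular cells at 93.9 and 113 CPM with the mimic, 89.2, 129 and 132 with exosomes, and 97.0, 110.0 and 138 with scrambled miRNA. Its endothelial levels were 115 and 119.8 CPM with the mimic, 88.1, 142 and 113 with exosomes, and 94.9, 116 and 122 with scrambled miRNA. The log2 folds of Atf4 lay between -0.15 and 0.09. ATF4 is made mainly by control of translation and XBP1 activity by splicing, and neither is read by these mRNA levels.

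Ddit3, whose product CHOP is a transcription factor linked to cell death after lasting ER stress, lay on opposite sides of scrambled miRNA with the mimic in the 2 cell types. In tubular cells it had 8.09 and 6.96 CPM with the mimic, 9.38, 12.7 and 31.2 with exosomes, and 11.6, 16.3 and 18.8 with scrambled miRNA. Both mimic libraries were the lowest of the 8. Endothelial levels were 24.0 and 19.8 CPM with the mimic, 10.6, 17.4 and 20.2 with exosomes, and 9.85, 9.33 and 14.98 with scrambled miRNA, with both mimic libraries above the scrambled-miRNA ones. The log2 fold with the mimic was 0.94 in endothelial (SE 0.31, edgeR adjusted p = 0.152) and -1.05 in tubular cells (SE 0.47, adjusted p = 0.312). The difference of these effects, endothelial minus tubular (interaction), gave a log2 value of 1.98 (SE 0.60, edgeR adjusted p = 0.164) and passed in 3 of 23 alternative fits, with adjusted p from 7.06e-05 to 0.782. Among those was DESeq2 at an adjusted p of 0.0482. With exosomes the log2 folds were 0.51 in endothelial and 0.19 in tubular cells, with adjusted p = 0.563 and 0.811 by edgeR.

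The ATF4 targets Trib3, Asns and Chac1 had the widest spread in tubular libraries, and the high values came from scrambled miRNA. Trib3 had 0.332 and 0.148 CPM with the mimic, 0.481, 0.631 and 0.725 with exosomes, and 1.19, 2.58 and 21.6 with scrambled miRNA. These levels rest on 8 and 3 reads with the mimic, 6, 7 and 7 with exosomes, and 16, 26 and 188 with scrambled miRNA. All 5 treated libraries lay below all 3 scrambled-miRNA ones of the same cell type. Of all genes, 31.4% did not overlap with the mimic and 30.7% with exosomes, and the share in both was not counted. The log2 fold of Trib3 was -5.04 with the mimic (SE 1.29, edgeR adjusted p = 0.143) and -3.76 with exosomes (SE 1.03, adjusted p = 0.0659). It passed in 3 of 14 alternative fits of each comparison, with adjusted p from 6.89e-11 to 0.780 and from 1.61e-09 to 0.214.

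Asns had 2.86 and 2.07 CPM with the mimic, 6.90, 2.07 and 5.29 with exosomes, and 4.40, 14.0 and 58.7 with scrambled miRNA in tubular cells. The mimic libraries lay below all 3, and the exosome libraries overlapped the lowest. Its log2 fold was -3.36 with the mimic (SE 0.98, edgeR adjusted p = 0.167) and -2.42 with exosomes (SE 0.81, adjusted p = 0.107), and passed in 3 and 2 of 14 alternative fits (adjusted p from 9.16e-20 to 0.780 and from 2.99e-15 to 0.306). Chac1 had 0.373 and 0.346 CPM with the mimic, 0.241, 0 and 1.04 with exosomes, and 1.12, 2.09 and 3.56 with scrambled miRNA, from 9 and 7, 3, 0 and 10, and 15, 21 and 31 reads. Its log2 folds of -2.61 with the mimic and -2.41 with exosomes passed in 0 of 14 alternative fits (edgeR adjusted p = 0.291 and 0.174).

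A single library set much of the size of the Trib3 and Asns folds. Without tubular scrambled-miRNA library 3 the log2 fold of Trib3 was -2.89 with the mimic and -1.63 with exosomes, and that of Asns -1.87 and -0.96, while that of Chac1 was -2.10 and -1.95. Without tubular scrambled-miRNA library 1, the lowest of the 3, Trib3 passed with the mimic (-5.56, edgeR adjusted p = 0.0371) and with exosomes (-4.31, adjusted p = 0.0258), and Asns with the mimic (-3.85, adjusted p = 0.0377) and with exosomes (-2.94, adjusted p = 0.0320). The injury marker Havcr1 was likewise highest in library 3 and lowest in library 1, at 4.69 and 5.92 CPM with the mimic, 9.38, 6.31 and 8.60 with exosomes, and 15.9, 473 and 1011 with scrambled miRNA. Krt20, another injury marker, was highest in library 2, at 0.672, 60.1 and 34.6 CPM in scrambled-miRNA libraries 1, 2 and 3. The part of injury in the Trib3, Asns and Chac1 values was not tested.

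**Figure D3:**
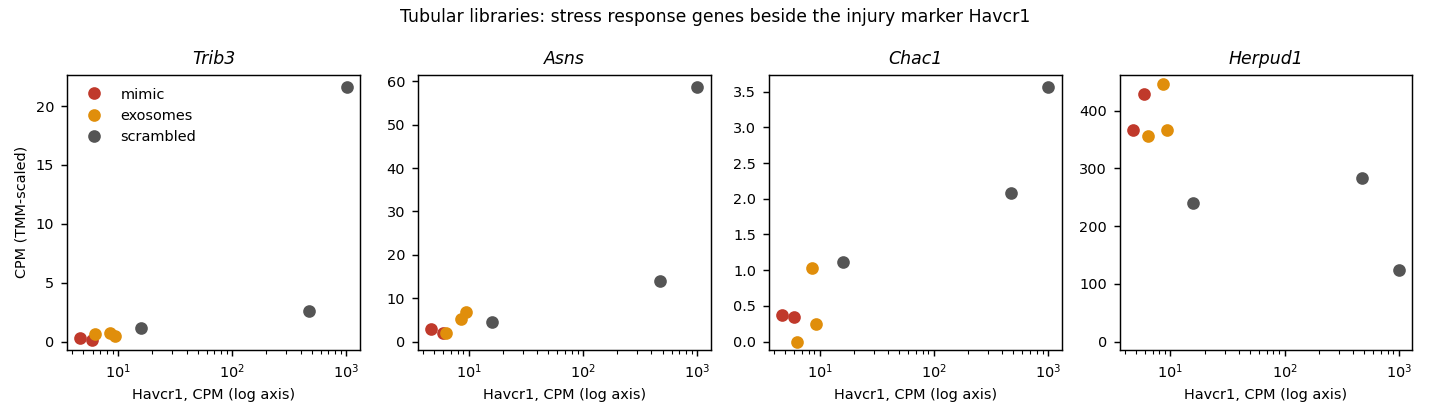
CPM of Trib3, Asns, Chac1 and Herpud1 against CPM of Havcr1 (log axis) in the 8 tubular libraries, 1 point a library, coloured by mimic, exosomes and scrambled miRNA. The library with 1011 CPM of Havcr1 has the highest Trib3 (21.6 CPM), Asns (58.7 CPM) and Chac1 (3.56 CPM) and the lowest Herpud1 (125 CPM).

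In endothelial libraries the same genes spread less. Asns had 5.72 and 6.51 CPM with the mimic, 8.40, 12.2 and 6.72 with exosomes, and 28.4, 12.0 and 22.2 with scrambled miRNA. The mimic libraries lay below all scrambled-miRNA ones and the log2 fold was -1.77 (SE 0.40, edgeR adjusted p = 0.0733), passing in 4 of 14 alternative fits (1.54e-06 to 0.441), among them DESeq2 (adjusted p = 0.00107). With exosomes it was -1.18 (SE 0.34, adjusted p = 0.246), passing in 1 of 14. Trib3 had 1.77 and 2.07 CPM with the mimic, 0.848, 3.04 and 2.54 with exosomes, and 4.70, 2.47 and 8.08 with scrambled miRNA. The log2 folds of Trib3, -1.41 with the mimic (edgeR adjusted p = 0.264) and -1.24 with exosomes (adjusted p = 0.448), passed in 0 of 14 alternative fits each. Chac1 overlapped between groups, at 4.40 and 1.92 CPM with the mimic, 1.16, 3.48 and 2.70 with exosomes, and 3.499, 3.11 and 2.59 with scrambled miRNA, with log2 folds of 0.04 for the mimic and -0.30 for exosomes.

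**Figure D4:**
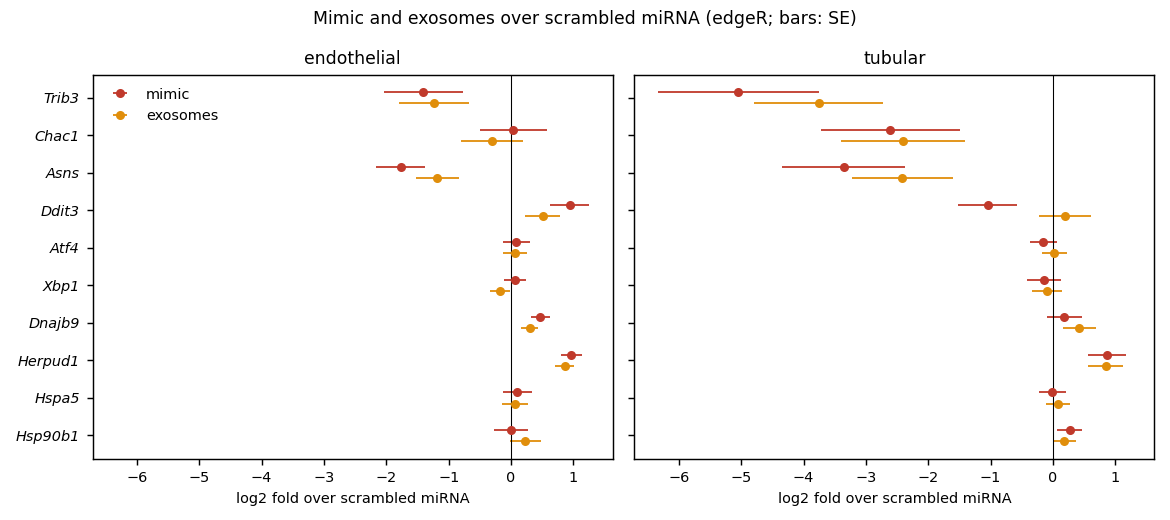
Log2 folds of mimic and of exosomes over scrambled miRNA for the 10 members from edgeR, endothelial cells left and tubular cells right, with bars for the SE. Herpud1 lies between 0.85 and 0.97 in all 4 fits, while Trib3 lies at -5.04 and -3.76 in tubular and at -1.41 and -1.24 in endothelial cells; 0 of these folds passed the adjusted test.

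Of the other pathway genes, the synthetases gave the most calls against scrambled miRNA. With exosomes in tubular cells 6 of 18 fell and 0 rose by edgeR, where 5.18% of all genes were called, and all 18 folds were negative (median -0.59, beside -0.02 over all genes). Iars fell by 0.95 (SE 0.22, adjusted p = 0.0439), Aars by 0.83 (SE 0.17, adjusted p = 0.0358) and Vars by 0.83 (SE 0.17, adjusted p = 0.0341). Of 32 ATF4 and CHOP targets in the same comparison 1 rose and 2 fell (median -0.88, 26 negative): Cebpb by -1.25 (SE 0.19, adjusted p = 0.0242), the alanine transaminase Gpt2 by -0.75 (SE 0.17, adjusted p = 0.0449) and the cysteine synthesis enzyme Cth by 0.78 (SE 0.17, adjusted p = 0.0390). Selenok, a selenoprotein of ER-associated degradation, rose by 0.85 (SE 0.19, adjusted p = 0.0409) as the only call among 24 genes of its list (median 0.08), which is near that share of all genes, as is the count among the ATF4 and CHOP targets. The 22 chaperones (median 0.19) and the 22 sensors (median -0.11) gave 0 calls. In this comparison 6 of 10 tubule injury markers fell, among them Havcr1 (log2 fold -5.94), and the total of 772 calls was 1 to 1338 when 1 library was left out.

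With the mimic in tubular cells 0 genes of the 5 lists were called, with 26 of 32 ATF4 and CHOP targets negative (median -1.15) and 17 of 18 synthetases negative (median -0.34). The chaperones had a median of 0.09 and the degradation and secretory genes of 0.25. In endothelial cells likewise 0 list genes were called. There 27 of 31 ATF4 and CHOP targets were negative with the mimic (median -0.53) and 27 of 31 with exosomes (median -0.41), and 18 and 17 of 18 synthetases (medians -0.39 and -0.31), beside medians of 0.00 and 0.02 over all genes. Several marker lists had larger medians in the same endothelial comparisons, with 0 of their genes called. With the mimic all 10 injury markers were negative (median -2.52), as were 9 of 10 proximal tubule markers (-1.78), while 7 of 7 thick ascending limb (1.72) and 9 of 9 distal and collecting duct markers (1.77) were positive. With exosomes all 10 injury markers were negative (median -1.14), 8 of 10 proximal tubule markers positive (0.26), and 7 of 7 thick ascending limb (1.16) and 9 of 9 distal and collecting duct markers (1.34) positive. In tubular libraries all 10 injury markers were negative with the mimic (median -4.18) and with exosomes (-3.81). The part of these markers in the list values was not tested.

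**Figure D5:**
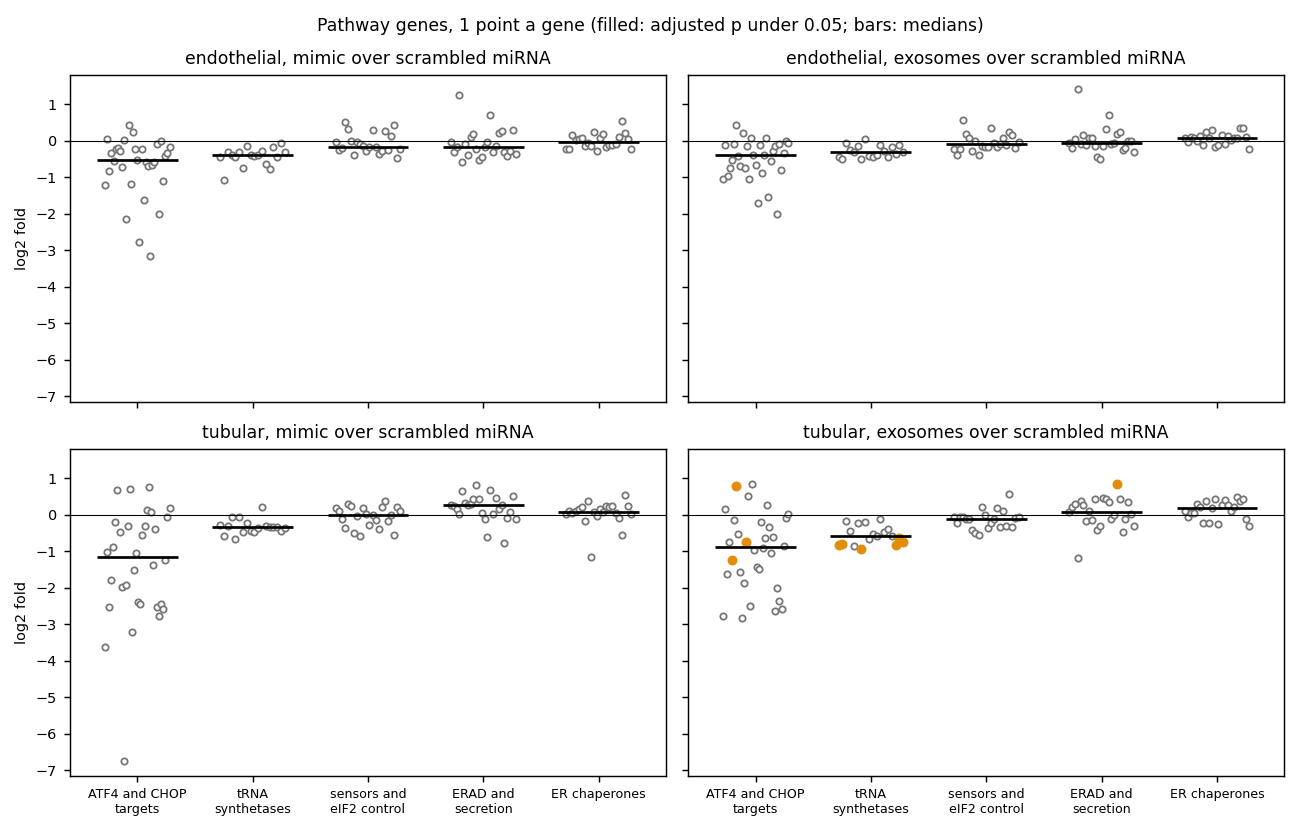
Log2 folds of the other pathway genes, 1 point a gene, by list, for mimic (left) and exosomes (right) over scrambled miRNA in endothelial (top) and tubular cells (bottom), with bars for medians and filled points for edgeR adjusted p under 0.05. The 6 filled synthetases at -0.63 to -0.95 lie in the panel of exosomes in tubular cells, where the ATF4 and CHOP targets have a median of -0.88.

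With mimic and exosomes set directly against each other, 0 of 10 members were called in either cell type. In tubular cells 0 of 14900 genes were called by edgeR (0%; 1849 at an unadjusted p under 0.05, 163 by DESeq2), and in endothelial cells 0 of 16303 (0%; 661 unadjusted, 5 by DESeq2). The member with the lowest p was Ddit3 in tubular cells, where the mimic libraries lay below all exosome libraries (log2 fold -1.24, SE 0.47, edgeR adjusted p = 0.365). In that comparison 3 members lay wholly below and 0 above, where 40.7% of all genes did not overlap. The normal approximation used above for intervals is too narrow for so few libraries. For Herpud1 the nominal 95% interval of mimic over exosomes was -0.58 to 0.63 in tubular and -0.23 to 0.45 in endothelial cells (log2). For Trib3 in tubular cells it was -3.77 to 1.20, so that large differences either way remain within it.

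Whether a treatment acted differently in the 2 cell types was tested as an interaction. The labels share library numbers between cell types without saying that a number marks a single mouse. Libraries were taken as independent in this test and in the comparison of cell types below. By edgeR 0 of 17129 genes were called for the mimic (0%; 2649 at an unadjusted p under 0.05, 597 by DESeq2) and 0 for exosomes (0%; 1329 unadjusted, 31 by DESeq2). Of the members, Ddit3 (1.98), Trib3 (3.65, SE 1.41, edgeR adjusted p = 0.239) and Chac1 (2.64, SE 1.18, adjusted p = 0.303) stood at an unadjusted p under 0.05 for the mimic and 0 for exosomes. Herpud1 differed by 0.09 between cell types for the mimic and by -0.01 for exosomes on the log2 scale.

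Across the 3 treatments, 2 members were higher and 1 lower in endothelial than in tubular libraries by edgeR (n = 8 and 8), where 66.3% of 17129 genes were called. Chac1 was higher, at 2.03 (log2; SE 0.48, adjusted p = 0.00188), and passed in 21 of 21 alternative fits. Trib3 was higher by 1.34 (SE 0.56, adjusted p = 0.0474) but passed in 8 of 21 only, with adjusted p from 0.000232 to 0.251. Herpud1 was lower by -0.75 (SE 0.15, adjusted p = 0.000438) and passed in 21 of 21. Hspa5 (-0.27, adjusted p = 0.0777), Hsp90b1 (-0.27, adjusted p = 0.106) and Asns (0.65, adjusted p = 0.194) were not called.

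In the same comparison the counts of called list genes are to be read against the 66.3% of all genes called, and those of chaperones, sensors and degradation genes lay on either side of it. Of 32 ATF4 and CHOP targets 17 were higher and 10 lower in endothelial libraries (median 0.90), led by the stress regulator Nupr1 at 4.91, the amino acid transporter Slc7a5 at 4.10 and the transcription factor Jdp2 at 3.82. Chaperones were lower in 12 and higher in 3 of 22 cases (median -0.30), with Fkbp11 at -0.74, Sil1, a nucleotide exchange factor of BiP, at -0.72 and the disulfide isomerase P4hb at -0.71. Degradation and secretory genes were lower in 12 and higher in 1 of 24 (median -0.30), among them Edem1 at -1.16, Sec61g at -0.82 and Derl2 at -0.80. Of 22 sensors 9 were higher and 8 lower, with the eIF2 phosphatase subunit Ppp1r15a at 2.18, Creb3l1 at 1.87 and Eif2ak4, which encodes GCN2, at 1.08. Of 18 synthetases 1 was higher (Wars 0.68) and 5 lower, such as Sars at -0.65 and Dars at -0.54.

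Untreated injury was set against each treated group in the authors' deposited tables, where a positive fold means higher in the untreated group. Because the untreated samples come from the earlier series, these differences cannot be told apart from differences between the series. In tubular cells the authors' deposited tables called 6 of 10 members higher over the mimic (22.9% of 18329 genes called), 5 over exosomes (30.9% of 19299) and 4 over scrambled miRNA (17.8% of 16874), and 0 lower. Atf4 and Xbp1 were called in all 3: Atf4 at 1.47, 1.44 and 1.34, and Xbp1 at 1.26, 1.30 and 1.19, over mimic, exosomes and scrambled miRNA in that order. The remaining calls differed between tables that share the untreated samples. Trib3 (5.56 and 4.40), Chac1 (5.27 and 4.65) and Asns (2.81 and 2.66) were called over mimic and exosomes in the authors' deposited tables, and were listed over scrambled miRNA at 0.24, 0.36 and 0.05 (adjusted p = 0.400, 0.0754 and 0.891). The folds appear shrunken by a degree that differs between tables, so their sizes do not compare across these 3. A fold that was not called does not show equal levels. Tubular scrambled-miRNA libraries spread widely, at 1.19, 2.58 and 21.6 CPM of Trib3 and 4.40, 14.0 and 58.7 CPM of Asns. Herpud1 (1.69, SE 0.48, adjusted p = 0.00114) and Dnajb9 (1.03, adjusted p = 0.0222) were called over scrambled miRNA, and Ddit3 over the mimic (1.98, SE 0.76, adjusted p = 0.00534).

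In endothelial cells the authors' deposited tables called 2 members higher in untreated injury than with the mimic (10.2% of 19841 genes), 3 than with exosomes (3.77% of 17888) and 1 than with scrambled miRNA (0.757% of 20333). Over the mimic these were Asns at 2.20 and Trib3 at 2.12. Over exosomes they were Trib3 at 2.40, Asns at 1.39 and Xbp1 at 0.70 (adjusted p = 0.0493), and over scrambled miRNA Herpud1 at 1.64 (adjusted p = 0.0172). Hspa5 and Hsp90b1 were called in none of the 12 deposited tables, with log2 folds of -0.25 to 0.24 and -0.35 to 0.06.

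Other pathway genes were read from the same tables. In tubular cells, 18 of 32 ATF4 and CHOP targets were higher and 1 lower in untreated injury than with the mimic in the authors' deposited table (median 1.08), led by the arginine transporter Slc7a1 at 4.54, Nupr1 at 4.19 and Slc38a2 at 3.92. Over exosomes 14 were higher and 2 lower (median 0.83), and over scrambled miRNA 10 and 2 (median 0.11). Of 22 chaperones, 3 were lower and 1 higher over the mimic (median -0.35, 22.9% of all genes called), 7 lower and 1 higher over exosomes (median -0.47, 30.9% of all genes), among them Sdf2l1 at -1.14 and Manf at -0.71, and 0 lower and 1 higher over scrambled miRNA (median -0.25, 17.8% of all genes). Ppp1r15a was higher in untreated injury in all 3 authors' deposited tables of tubular cells, by 2.70, 2.60 and 2.19 over mimic, exosomes and scrambled miRNA. In endothelial cells 9 of 32 ATF4 and CHOP targets were higher over the mimic (Psat1 3.21, Slc1a4 2.87 and Gpt2 2.71), 3 of 31 over exosomes and 0 of 32 over scrambled miRNA. Of all genes, 10.2%, 3.77% and 0.757% were called in these tables, in the same order.

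Treated injury over sham gave 0 member calls in the authors' 4 deposited tables, counting Ddit3 by its first gene ID. Called genes were 1.03% of 17842 for the mimic and 11.2% of 15904 for exosomes in tubular cells, and 11.6% of 18864 for the mimic and 6.73% of 18377 for exosomes in endothelial cells. The treated and sham samples come from different series, which cannot be told apart from treatment. In endothelial cells the authors' deposited tables listed Chac1 at 1.12 with the mimic and 1.22 with exosomes (adjusted p = 0.0986 and 0.0625), and Asns at 0.47 and 1.16 (adjusted p = 0.392 and 0.0581). In tubular cells Trib3, Chac1 and Asns were listed between -0.07 and 0.02, in tables where the mimic folds are all shrunk close to 0.

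Ddit3 has a second gene ID in the files (ENSMUSG00000116429), which consists of the 105-base transcript Ddit3-204 and overlaps the first on chromosome 10, so the authors' counting could split reads between them. That ID was called lower over sham with the mimic (-0.05, adjusted p = 0.0123) and with exosomes (-1.23, adjusted p = 0.0470) in the authors' deposited tables of tubular cells. It was called higher in untreated injury than with the mimic (2.68, adjusted p = 0.00136) and with exosomes (1.34, adjusted p = 0.0304) there. Only 0 to 33.2 reads a library were assigned to it in the 16 libraries. With an effective length of 4, it held 80.5 to 91.1% of summed Ddit3 TPM over the 6 groups on 2.9 to 6.98% of the reads, so that summed TPM is no usable level of Ddit3. Without that transcript the log2 folds of Ddit3 with the mimic were 0.91 in endothelial and -1.02 in tubular cells, an alternative chosen after seeing the data. Short transcripts likewise held 70.9 to 75.8% of Hsp90b1 TPM (Hsp90b1-205, a retained intron) and 52.4 to 65.6% of Dnajb9 TPM (Dnajb9-202), which is why levels across libraries are given in CPM.

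The transcripts that carried most reads were full-length coding forms. Hspa5-202 held 90.6 to 93.3% of Hspa5 reads, Hsp90b1-201 93.2 to 96.5%, Xbp1-201 88.2 to 94.9% and Atf4-201 80.9 to 87.0% over the 6 groups. Herpud1 was split between Herpud1-201 (31.5 to 53.1% of reads) and Herpud1-205 (24.1 to 50.3%), both coding. Chac1 was quantified as Chac1-201 alone.

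Finally, genes with the most similar pattern were sought, as the Pearson correlation of log2 CPM over 16 libraries after subtracting each cell type's mean, among 14286 genes. The libraries share treatment, injury level and depth, so these values are descriptive. Hspa5 was most like 2 other ER luminal genes, Creld2 (r = 0.88) and Manf (0.85), followed by Mterf1b (0.79). Hsp90b1 was most like Pdia3, an ER disulfide isomerase (0.92), Gatad1 (0.91) and Nectin3 (0.90). Asns went with Vtcn1 (0.96), Cstb and G6pdx (0.95 each), and Trib3 with Tuba1c (0.96) and Pgm1 (0.94). Herpud1 went with Crebl2 (0.95), Isca1 (0.94) and the brush border protease gene Mep1b (0.93). Chac1 was most like Sema4b (0.91), Elf3 and Slain1 (0.90 each), and Ddit3 like Prkab2 (0.82), Ctf1 and Zfp119b (0.79 each). The nearest genes were Tra2a for Atf4 (0.85) and Atp5s for Dnajb9 (0.87).

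Among the members themselves, 90 pairs were compared within cell types over 8 libraries each, and 0 passed at an adjusted p under 0.05 by exact permutation. Treatment group means were not removed, and libraries were permuted across treatments. A difference between treatments that 2 members share therefore enters both r and p. Whether members vary together within a treatment was not tested. The lowest p belonged to Atf4 with Hsp90b1 in endothelial cells (r = -0.904, rho = -0.881, exact permutation p = 0.000918, adjusted 0.0725; r = -0.828 without the 2 libraries farthest from the median of Atf4). In each pair below, the 2 libraries left out were those farthest from the median of the gene named first. Herpud1 with Dnajb9 in endothelial cells had r = 0.935 (rho = 0.905, exact permutation p = 0.00255, adjusted 0.0725; 0.893 without 2 libraries). Trib3 with Asns in tubular cells had r = 0.934 (rho = 0.786, exact permutation p = 0.0030, adjusted 0.0725), and 0.488 without 2 libraries. Leaving these out also narrows the range of Trib3, so the lower r does not show what the relation rested on. In endothelial cells Trib3 with Asns had r = 0.755 (exact permutation p = 0.0284, adjusted 0.184), and 0.939 without 2 libraries. Herpud1 and Trib3 ran opposite in tubular cells (r = -0.929, rho = -0.714, exact permutation p = 0.00556, adjusted 0.0833), with -0.745 without 2. They did so in endothelial cells too (r = -0.829, rho = -0.905, exact permutation p = 0.00322, adjusted 0.0725), with -0.524 without 2.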

How the data were processed

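Poly(A) libraries were read on a NextSeq 500, per the labels. The submitters' processing notes name Salmon 0.13.1, DESeq2 and GRCm38. For the 16 mimic, exosome and scrambled-miRNA libraries, the deposited estimated counts are Salmon's reads per transcript before any scaling, and the authors' TPM and effective lengths stand beside them, per the file headers. The 12 deposited comparison tables hold, per the file headers, the authors' log2 fold changes and standard errors, their p-value and adjusted p columns, and a base mean, a normalized signal that is the same in every table of a cell type. Each fold is of the group named first over the other. Positions are from GENCODE M21 and promoters from RefSeq.

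Transcripts were summed by symbol and rounded. edgeR 4.0.16 in R 4.3.3 (TMM, filterByExpr with minimum count 10 and total 15, quasi-likelihood tests, Benjamini-Hochberg at 0.05) was fitted to the 8 tubular, the 8 endothelial and all 16 libraries, and tested on simulated data. The rule for named genes was all 10 members, the 3 called genes of largest fold per list and comparison, and the 3 genes most like each member. Some of the genes most like a member are not reported here. Members and lists were chosen with earlier results of these data known. Alternatives were DESeq2 1.42.0, no low-count filter, the compared groups alone, a length offset, a replicate block and leaving out each library. Of the deposited columns, 0 could not be tied to a sample or comparison. Precision is limited by groups of 2 or 3 libraries of 8.27 to 25.3 M reads.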

Additional observations from a re-analysis of the deposited data

How the results depend on the processing

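The comparisons against scrambled miRNA depended on the fit, while no member's called fold changed direction under any alternative; of the single-member values 1440 stayed on their side of the threshold, 44 newly passed and 13, all of Trib3 in endothelial against tubular cells, no longer did. With no low-count filter the genes called were 1355 with the mimic, 2015 with exosomes and 395 for mimic against exosomes in tubular cells. The same 3 endothelial counts were 2034, 891 and 660, and the mimic and exosome interactions had 1722 and 499. The members called were then 4, 3 and 1 in tubular cells, 3 and 2 against scrambled miRNA in endothelial ones, and 3 and 1 for the interactions. This fit took every gene with any read, as DESeq2 did, a larger set than the filtered one. The share of all genes called was not counted for the alternative fits, so their member counts have no background. With DESeq2 the genes called were 722, 1643 and 163 (tubular), 1254, 348 and 5 (endothelial), and 597 and 31 for the interactions; the members called were 2 with the mimic and 2 with exosomes in tubular libraries, 2 and 1 in endothelial ones, and 1 for the mimic interaction. With only the groups compared in the fit, genes called were 0, 459 and 300 in tubular cells, 1503 with the mimic in endothelial cells (2 members) and 188 for the mimic interaction (1 member). A transcript length offset gave 0 genes with the mimic and 48 with exosomes in tubular cells. Why these counts differ was not tested.

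Replicate numbers within a cell type, and library numbers shared between cell types, are not stated to mark pairs. Deviations from group means in same-numbered libraries had correlations from -0.051 to 0.230 within cell types and from -0.109 to 0.087 between them. With groups of 2 or 3 libraries, these values cannot show whether a number marks a single mouse. Libraries were taken as independent, and a block on these numbers serves as an alternative only. With it 8 genes were called with the mimic and 291 with exosomes in tubular cells, and 691 with the mimic in endothelial cells, where 1 member, Herpud1, passed (0.92, edgeR adjusted p = 0.0498). Leaving out 1 library gave 0 to 497 genes for the tubular mimic, 1 to 1338 for tubular exosomes, 0 to 64 for tubular mimic against exosomes, 0 to 1328 for the endothelial mimic, 0 to 55 for endothelial exosomes, and 0 to 593 and 0 to 77 for the interactions of mimic and exosomes. Members called ranged from 0 to 2 in both tubular comparisons and from 0 to 3 with the mimic in endothelial cells, where Ddit3, Herpud1 and Asns passed without exosome library 1 (edgeR adjusted p = 0.0453, 0.0166 and 0.0328). Between cell types 2 to 4 members passed. At the authors' adjusted p under 0.01, untreated injury in endothelial cells had 1 member over the mimic, 1 over exosomes and 0 over scrambled miRNA. Depth limits Trib3 and Chac1 in tubular cells most, at 0 to 10 reads in each treated library.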
